A study of Mus musculus with 29 samples.

Results

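The 8 genes described here encode proteins of the dystrophin complex of the muscle fibre membrane, together with neuronal nitric oxide synthase: Dmd, Utrn, Dag1, Sgca, Sgcb, Sgcd, Dtna and Nos1. They were found by symbol among the 22537 genes of the count table, all 8 were present, and all 8 had enough counts to be tested in every comparison. Polyadenylated RNA from entire tibialis anterior (TA) muscles, a fast muscle of the shin, was sequenced in male C57BL/6 mice for which the labels name no transgene or treatment. The mice were adults, older adults and elderly animals, 7 of them 6 months old (6m), 7 of them 24 months old (24m) and 8 of them at least 28 months old (28m). The first sequencing run held 7 libraries at 24m and 7 at 6m, and the second run held 8 libraries at 28m and 7 new libraries of the same 6m mice. Each old group was compared with the 6m libraries of its own run. The mice at 24m and at 28m were never in one run.

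Dystrophin, the product of Dmd, joins the actin skeleton beneath the fibre membrane to dystroglycan, which crosses the membrane and holds laminin in the basement membrane on the other side. The sarcoglycans stabilise dystroglycan within the membrane, and dystrobrevin and the syntrophins form a scaffold on the inner face, to which dystrophin and the syntrophins bind neuronal nitric oxide synthase. Nitric oxide made there is known to widen the vessels of working muscle, and loss of dystrophin or of a sarcoglycan causes muscular dystrophy. Utrophin is a close relative of dystrophin that is concentrated at the neuromuscular junction of adult fibres.

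On the mouse genome build mm10 (GRCm38), the GENCODE annotation places Nos1 at chr5:117781032-117958840 on the plus strand, Sgcb at chr5:73632749-73647790 on the minus strand and Dag1 at chr9:108204634-108263958 on the minus strand. Utrn lies at chr10:12382188-12869365, Sgca at chr11:94962791-94976327 and Sgcd at chr11:46896253-47988969, all on the minus strand. Dmd spans chrX:82948870-85206141 on the plus strand. Their mRNAs differ widely in length. The longest annotated transcripts measure 14910 bases for Dmd, 12382 for Utrn, 10123 for Nos1, 6295 for Dtna, 5662 for Dag1, 4453 for Sgcd, 3786 for Sgcb and 1724 for Sgca. Exons of another gene on the opposite strand cover 268 of the 11151 exonic bases of Nos1 and 90 of the 16930 of Dtna, and none of the others' exonic bases. The counting step does not state its strand setting, so reads in those bases cannot be assigned to one strand.

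RefSeq (GRCm38.p6) gives a window of 300 bases around the start, from 250 bases before it to 50 after it, for 7 of the 8 genes (not Dtna). For Dag1 and Dmd it gives another start as well, and the window nearest the 5′ end of the GENCODE gene is shown. Of these, 4 are shown because their genes differed most in their values at 28m: Nos1 and Dag1, which were lower and had the widest spread there, Dmd, which did not pass the test, and Sgca, which was higher. Capitals mark matches on either strand to the E-box CANNTG, which myogenic factors of the MyoD family bind, and to the CArG box, which serum response factor binds. The Nos1 window, chr5:117866589-117866888 on the plus strand, starts inside the span given above, and the Dag1 window is chr9:108263909-108264208 on the minus strand. That of Dmd is chrX:82948620-82948919 on the plus strand and that of Sgca chr11:94976278-94976577 on the minus strand, and in these 3 genes the RefSeq start is also the end of the GENCODE span.
Nos1: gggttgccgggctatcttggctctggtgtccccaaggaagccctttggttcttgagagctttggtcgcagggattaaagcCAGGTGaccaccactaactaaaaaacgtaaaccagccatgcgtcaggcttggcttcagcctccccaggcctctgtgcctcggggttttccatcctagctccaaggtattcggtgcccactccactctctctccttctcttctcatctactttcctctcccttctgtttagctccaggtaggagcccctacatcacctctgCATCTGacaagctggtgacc
Dag1: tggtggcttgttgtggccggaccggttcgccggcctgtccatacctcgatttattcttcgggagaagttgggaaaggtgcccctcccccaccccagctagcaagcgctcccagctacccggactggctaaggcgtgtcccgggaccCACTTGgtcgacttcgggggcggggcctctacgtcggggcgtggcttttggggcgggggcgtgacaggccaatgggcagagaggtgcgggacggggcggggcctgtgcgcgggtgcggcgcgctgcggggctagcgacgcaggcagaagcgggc
Dmd: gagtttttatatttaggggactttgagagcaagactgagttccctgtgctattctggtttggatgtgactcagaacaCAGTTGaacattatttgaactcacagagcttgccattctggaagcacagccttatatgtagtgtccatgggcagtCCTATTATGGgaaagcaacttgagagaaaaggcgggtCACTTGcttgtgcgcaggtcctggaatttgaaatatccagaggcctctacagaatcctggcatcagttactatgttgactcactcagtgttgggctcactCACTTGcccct
Sgca: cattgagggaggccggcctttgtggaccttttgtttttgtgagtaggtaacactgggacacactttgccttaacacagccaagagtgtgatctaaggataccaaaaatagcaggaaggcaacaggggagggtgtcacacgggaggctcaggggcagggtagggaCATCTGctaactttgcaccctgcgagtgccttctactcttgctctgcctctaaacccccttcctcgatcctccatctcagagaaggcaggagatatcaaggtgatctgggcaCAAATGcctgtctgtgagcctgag
The Nos1 window held 2 matches to the E-box, that of Dag1 1, that of Dmd 3 and that of Sgca 2. An E-box is common, and 72.3% of all 32851 windows of this length held one. A CArG box was found in 1.63% of all windows and, among the 7 genes, in that of Dmd only, with 1 match. A match is a sequence of letters and not a measured site.

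Total counts per library lay between 17633475 and 33499162, with a median of 24250878. Levels of single libraries are given as CPM, counts scaled to the same total in each library after TMM normalisation over all 29 libraries. Libraries also differed in how their counts were spread over short and long genes. For each library the deviation of every gene's log2 CPM from its mean in the 6m libraries of the second run (the library itself left out) was set against the gene's exonic length. The Spearman rho of these values, across genes that are not independent, is called the length trend here. At 6m in the second run it lay between -0.14 and 0.13. At 28m it lay between -0.49 and -0.53 in replicates 1, 2, 3, 5 and 7 and between -0.17 and -0.30 in replicates 4, 6 and 8. The groups did not overlap in it, so age and length trend cannot be told apart in the second run. In the first run, 6m replicate 4 had the steepest trend of all 29 libraries (-0.55), and 24m replicate 4 had -0.43.

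Per kilobase of the longest transcript, Sgca was the most abundant of the 8 genes in the 6m muscle, with 114 ± 5.67 CPM per kb (SD, n = 7, second run). Sgcb followed with 39.7 ± 2.34 and Dag1 with 39.0 ± 1.66, and these neighbours differed by less than their spread. Dtna stood at 15.8 ± 0.728. Nos1 with 10.3 ± 1.33 and Dmd with 10.1 ± 0.980 were again within each other's spread, and Sgcd with 5.27 ± 0.894 and Utrn with 3.91 ± 0.303 came last. At 28m Sgca still led with 143 ± 11.0 CPM per kb (n = 8). Dag1 then stood at 17.3 ± 12.3, within its own spread of Dtna at 14.7 ± 4.32, and Nos1 at 1.96 ± 2.09 could not be told from Utrn at 2.19 ± 0.481 or Sgcd at 2.30 ± 1.103.

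**Figure D1:**
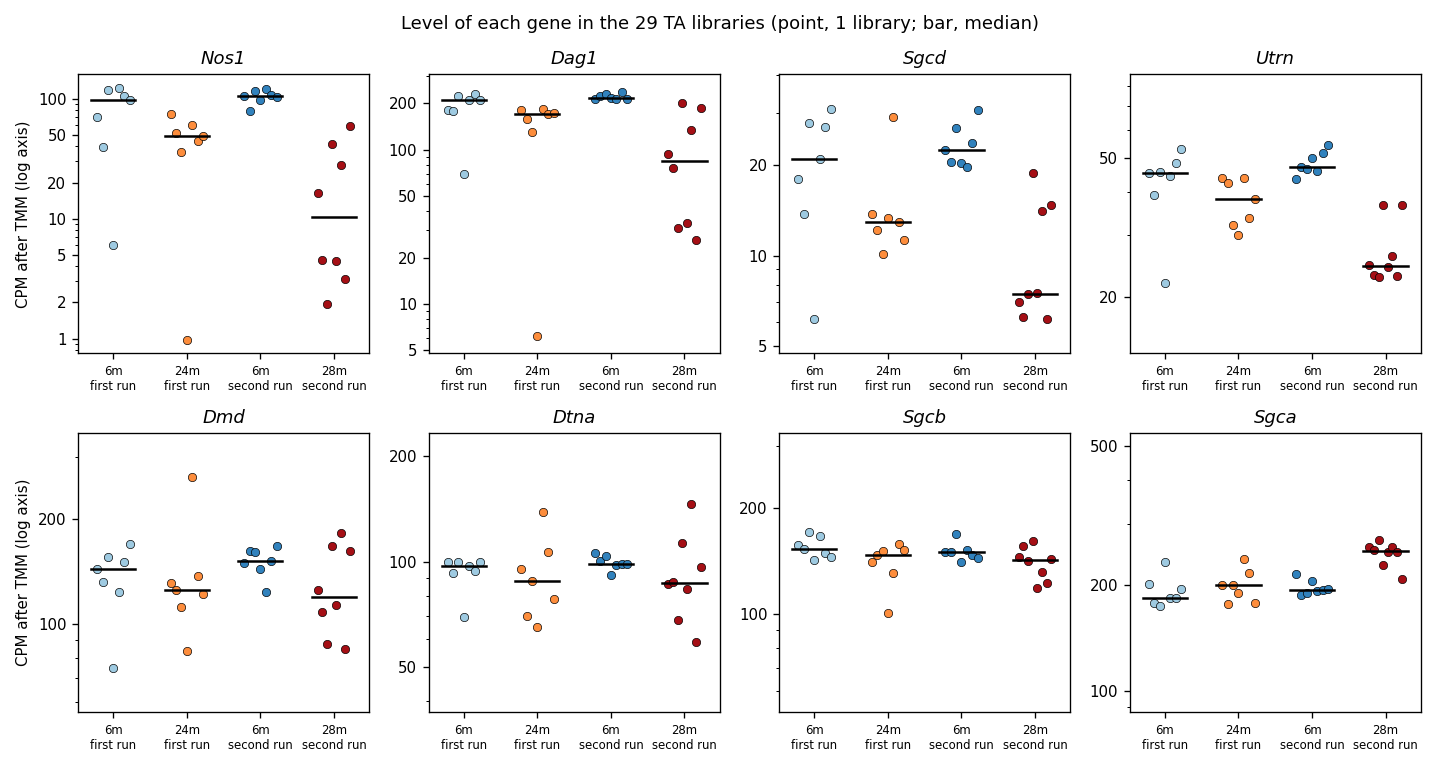
CPM after TMM scaling (vertical log axis, each panel with its own range) of the 8 genes in the 29 libraries by group, 1 point for a library and a bar for the median of 7 or 8 libraries. Nos1, Dag1, Sgcd and Utrn lay lower in all 8 libraries at 28m than in all 7 at 6m of the second run, and 6m replicate 4 of the first run (Nos1 5.97 CPM) and 24m replicate 4 (Nos1 0.979 CPM) lay far below their groups in Nos1 and Dag1.

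At 28m, Nos1, Sgcd, Dag1 and Utrn fell, Sgca rose, and Dmd, Sgcb and Dtna did not pass the test (edgeR's quasi-likelihood test, Benjamini-Hochberg adjusted p under 0.05). Of all 12994 genes tested, 22.9% were lower and 24.3% were higher, so 4 of 8 lower genes stand against a background of 22.9%. Nos1, Sgcd and Dag1 also had a log2 fold change of -1 or less and were DEGs, which held for 3.37% of all genes. The median log2 fold change of the 8 genes was -0.56, and that of all genes was 0.01. In Nos1, Sgcd, Dag1 and Utrn every 28m library lay below every 6m library, which held for 6.17% of all genes, and 6.2% of all genes lay above in the same way. In RNA of whole muscle, fewer cells of a type and less RNA per cell cannot be told apart. The libraries of a group came from different mice, and the p-values measure the spread between these mice, library preparation included.

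Nos1, the synthase itself, had the largest change of the 8 genes. Its level at 6m lay between 79.4 and 120.5 CPM with a median of 105, and at 28m between 1.96 and 58.8 CPM with a median of 10.4. No library at 28m reached the lowest at 6m, but the 28m libraries themselves spread 30.1-fold, against 1.52-fold at 6m. The 3 highest at 28m, with 27.9, 41.5 and 58.8 CPM, were replicates 6, 4 and 8, those with the flatter length trends. The log2 fold change was -2.41 (SE 0.59, 95% interval -3.66 to -1.15, adjusted p = 0.00470 by edgeR's quasi-likelihood test), the fifth lowest of all genes tested. With the 5 libraries of steep length trend left out, an alternative chosen after seeing the data, it was -1.29 (SE 0.20, adjusted p = 0.00215). With the length trend as a covariate, likewise added later, it was -0.35 (adjusted p = 0.875), and in that fit 4 of all 12994 genes passed.

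Dag1 encodes both subunits of dystroglycan. It lay between 213 and 237 CPM at 6m (median 216) and between 26.1 and 202 CPM at 28m (median 84.6). The 6m libraries were nearly equal, with a standard deviation of 4.24% of their mean, while that at 28m was 71.4%. Replicates 4 and 8, with 202 and 185 CPM, were nearest to the 6m range, and replicates 3, 5 and 7 were at 31.2, 33.7 and 26.1 CPM. The log2 fold change was -1.19 (SE 0.39, 95% interval -2.01 to -0.38, adjusted p = 0.0191 by edgeR). Without the 5 libraries of steep length trend it was -0.34 (SE 0.10, adjusted p = 0.0364), with the trend as a covariate it was 0.40 (adjusted p = 0.779), and with the first-run 6m libraries as the control it was -0.94 and no longer passed (adjusted p = 0.102). Leaving 6m replicate 4 out of that control gave -1.09 (adjusted p = 0.0492).

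The sarcoglycans did not move as one. Sgcd, delta-sarcoglycan, lay between 19.7 and 30.6 CPM at 6m (median 22.6) and between 6.14 and 18.9 CPM at 28m (median 7.46), again without overlap. Its log2 fold change was -1.21 (SE 0.24, adjusted p = 0.00154 by edgeR), and -0.56 (SE 0.15, adjusted p = 0.0215) without the 5 libraries of steep trend. With the trend as a covariate it was 0.031 (adjusted p = 0.974). Sgcb, beta-sarcoglycan, lay between 140.3 and 168 CPM at 6m and between 118 and 161 CPM at 28m. Its groups overlapped, with a log2 fold change of -0.13 (95% interval -0.30 to 0.03, adjusted p = 0.175). Sgca, alpha-sarcoglycan, a product of muscle fibres, lay between 188 and 215 CPM at 6m (median 194) and between 209 and 269.6 CPM at 28m (median 251). In 7 of 8 libraries at 28m it was above all 6m libraries, and the log2 fold change was 0.29 (SE 0.07, adjusted p = 0.00299). Sgca has the shortest mRNA of the 8, and once its libraries were corrected for a smooth trend with length and GC content, the log2 fold change was -0.0043 (adjusted p = 0.969). Without the 5 steep libraries it was 0.23 (SE 0.07, adjusted p = 0.0404), and with the trend as a covariate 0.11 (adjusted p = 0.732). Sgcd has an exonic length of 8257 bases, Sgcb of 4052 and Sgca of 1735, and the median gene has 4491.

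Utrn, utrophin, lay between 43.5 and 54.3 CPM at 6m (median 47.1) and between 22.8 and 36.7 CPM at 28m (median 24.5). All 28m libraries were lower, and the 2 highest were again replicates 4 and 8. The log2 fold change was -0.86 (SE 0.12, 95% interval -1.11 to -0.60), with the smallest adjusted p of the 8 genes (0.000316 by edgeR). Without the 5 libraries of steep trend it was -0.55 (SE 0.11, adjusted p = 0.00613), and with the trend as a covariate -0.21 (adjusted p = 0.533). Dmd, dystrophin itself, lay between 123 and 167 CPM at 6m (median 151) and between 85.2 and 182 CPM at 28m (median 119). Its 28m libraries fell on both sides of the 6m range, 4 of them below and 2 above it. The log2 fold change was -0.25 (SE 0.16, 95% interval -0.59 to 0.08, adjusted p = 0.196), and it was 0.17 (adjusted p = 0.179) without the 5 libraries of steep trend and 0.23 (adjusted p = 0.0547) after the correction for length and GC content. Dtna, dystrobrevin alpha, which the annotation places on chromosome 18, lay between 91.5 and 106 CPM at 6m (median 98.6) and between 59.1 and 146 CPM at 28m (median 87.1). Like Dmd it spread to both sides, with 5 libraries below and 2 above the 6m range and a log2 fold change of -0.13 (SE 0.15, 95% interval -0.45 to 0.19, adjusted p = 0.495), which turned to 0.37 (adjusted p = 0.00827) after the same correction and to 0.25 (adjusted p = 0.0936) without the 5 libraries.

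**Figure D2:**
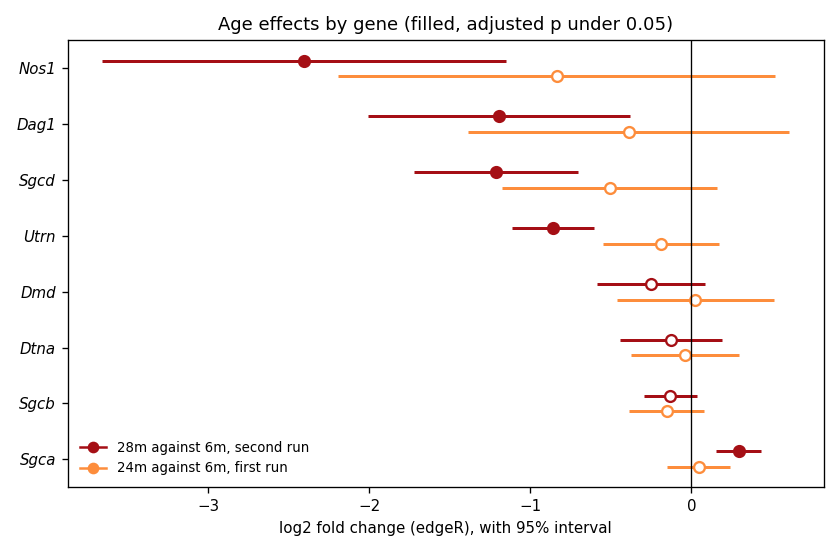
Log2 fold change by edgeR (horizontal axis) of the 8 genes at 28m against 6m in the second run and at 24m against 6m in the first run, with 95% intervals and filled points where the adjusted p was under 0.05. At 28m, 5 genes have filled points, from -2.41 for Nos1 to 0.29 for Sgca, and at 24m there are none.

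The ratio of 2 genes within a library does not depend on the scaling of the libraries, but it can differ between libraries of 1 mouse. Utrn counts were between 0.289 and 0.372 of the Dmd counts at 6m in the second run (median 0.326) and between 0.144 and 0.270 at 28m (median 0.217). All 8 ratios at 28m lay below all 7 at 6m. The mean log2 ratio was lower by 0.58 at 28m (-2.22 ± 0.28 against -1.64 ± 0.15, SD), with p = 0.000311 in an exact permutation test over 6435 assignments, two-sided, and 0.000932 after adjustment over the 4 ratio tests. Nos1 counts were between 0.492 and 0.979 of the Dmd counts at 6m (median 0.701) and between 0.0222 and 0.365 at 28m (median 0.0862). The log2 ratio was -3.58 ± 1.49 at 28m against -0.54 ± 0.30 at 6m, again with 8 of 8 libraries below the 6m range (exact p = 0.000466, adjusted 0.000932). In 6m replicate 4, the ratio of Nos1 to Dmd was 0.0799 in the first run, within the 28m range, and 0.676 in the second. The ratio of Utrn to Dmd in the same mouse was 0.294 and 0.348, both above the 28m range. Without the 5 libraries of steep trend the differences were -0.73 for Utrn to Dmd and -1.52 for Nos1 to Dmd (exact permutation, adjusted p = 0.0167 for both). As all 8 ratios at 28m lay below all 7 at 6m, those kept did so too. The outcome of this test was therefore largely set in advance, and it adds no support. At 24m the ratio of Utrn to Dmd had a median of 0.313 against 0.314 at 6m (exact p = 0.450), and that of Nos1 to Dmd had 0.326 against 0.575 (exact p = 0.299, adjusted 0.399). Leaving out 6m replicate 4 of the first run took the latter difference from -1.02 to -1.43 on the log2 scale, where it passed (exact permutation, adjusted p = 0.0458), and leaving out 24m replicate 4 took it to -0.31. Without both libraries it was -0.73 and did not pass (exact permutation, adjusted p = 0.0577).

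**Figure D3:**
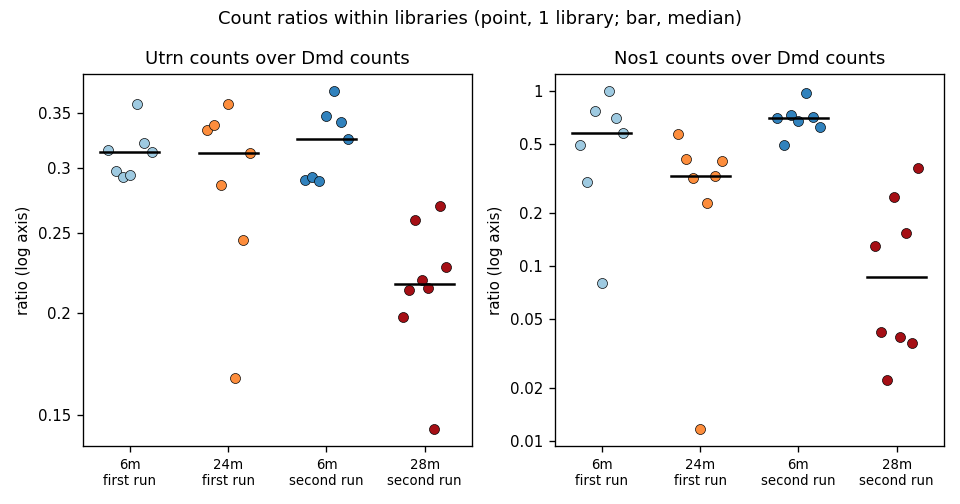
Utrn counts (left) and Nos1 counts (right) divided by Dmd counts in each library (vertical log axis), 1 point for a library and a bar for the median of a group. The ratios at 28m lie below those at 6m of the second run for both genes, and the 24m ratios overlap those at 6m of the first run.

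At 24m none of the 8 genes passed the test, against a background in which 3 of 13103 genes were lower (0.0229%) and 8 were higher (0.0611%) by edgeR. At an unadjusted p under 0.05 there were 1546 genes, and none of the 8 was among them. DESeq2 called 45 genes lower and 170 higher and limma-voom 4 and 8, in both cases with none of the 8. Nos1 lay between 0.979 and 74.4 CPM at 24m (median 48.6) and between 5.97 and 123 CPM at 6m in the first run (median 97.0). Each group had 1 library far below the rest, replicate 4 in both. The log2 fold change was -0.84 (SE 0.64, 95% interval -2.20 to 0.52, adjusted p = 0.579), and without those 2 libraries -0.82 (SE 0.25, adjusted p = 0.111). It was -0.12 with the length trend as a covariate (adjusted p = 0.951) and -1.22 with the second-run 6m libraries as the control (adjusted p = 0.181). Dag1 lay between 130 and 183 CPM in 6 of 7 libraries at 24m and at 6.22 CPM in replicate 4, and the log2 fold change was -0.39 (95% interval -1.39 to 0.61, adjusted p = 0.714). It was -0.18 without that library and -0.54 without 6m replicate 4. Sgcd had a median of 12.9 CPM at 24m against 21.1 at 6m and a log2 fold change of -0.51 (95% interval -1.18 to 0.16, adjusted p = 0.508). Utrn (-0.19), Sgcb (-0.15), Dtna (-0.04), Dmd (0.03) and Sgca (0.04) were nearer to 0, with adjusted p-values between 0.552 and 0.968.

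Single 24m libraries stood out in different genes. In replicate 4, Nos1 had 28 counts and Dag1 178, of a total of 33499162, while Sgca at 191 CPM and Sgcd at 13.4 CPM were within the range of the other 24m libraries. Dmd at 83.6, Dtna at 65.2, Utrn at 30.1 and Sgcb at 100.1 CPM were also the lowest of the 7, with the next libraries at 112, 69.8, 32.0 and 131 CPM. In replicate 5, Dmd was at 263 CPM against at most 137 in the other 24m libraries, Sgcd at 28.99 against at most 13.8 and Dtna at 139 against at most 106. In the same library Nos1, at 60.3 CPM, was within the range of the other 24m libraries, and Dag1, at 183 CPM, was just above their highest value of 179.8 CPM.

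The difference between the 28m and the 24m effects was tested directly over all 29 libraries. None of the 8 genes passed, and 0 of all 13455 genes did (0%), although 1611 had an unadjusted p under 0.05, Utrn and Sgca among them. DESeq2 called 2 genes, none of the 8, and limma-voom 0. The differences were -1.57 for Nos1 (95% interval -3.41 to 0.27, adjusted p = 0.462 by edgeR), -0.80 for Dag1 (adjusted p = 0.567), -0.70 for Sgcd (adjusted p = 0.464) and -0.66 for Utrn (95% interval -1.07 to -0.25, unadjusted p = 0.00286, adjusted p = 0.398). For Sgca the difference was 0.27 (95% interval 0.05 to 0.49, unadjusted p = 0.0191, adjusted p = 0.399 by edgeR). The calls at 28m and their absence at 24m are therefore not shown to differ between the ages.

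The 6m mice, sequenced in both runs, set the runs side by side at one age. In the fit with the mouse as a block, 0 of 12884 genes passed (0%), none of the 8 among them, and Nos1 was higher by 0.64 on the log2 scale in the second run (SE 0.40, adjusted p = 0.499 by edgeR). At an unadjusted p under 0.05 there were 1052 genes, none of the 8 among them. Without both libraries of 6m replicate 4, 83 genes were lower and 103 higher in the second run, Dag1 among the latter (0.12, adjusted p = 0.0449), and Nos1 was at 0.25 (adjusted p = 0.116). That mouse differed from the others. The first-run library of 6m replicate 4 held 113 counts of Nos1 and its second-run library 1903, although their totals were 19920641 and 19802728. The log2 difference in CPM, first run minus second, was -4.00 for Nos1, the second lowest of all 13455 genes in that pair. It was -1.71 for Sgcd, -1.63 for Dag1, -1.18 for Utrn, -0.94 for Dmd and -0.39 for Dtna, and close to 0 for Sgcb (0.02) and Sgca (0.17). Across all genes the 2 libraries differed with a standard deviation of 0.607, against 0.236 to 0.272 in the other 6 mice, and the difference fell with exonic length (rho = -0.55, across genes). Replicates 1 and 2 had smaller differences of the same sign for Nos1, -0.57 and -0.998, and in the other 4 mice they lay between -0.09 and 0.04.

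**Figure D4:**
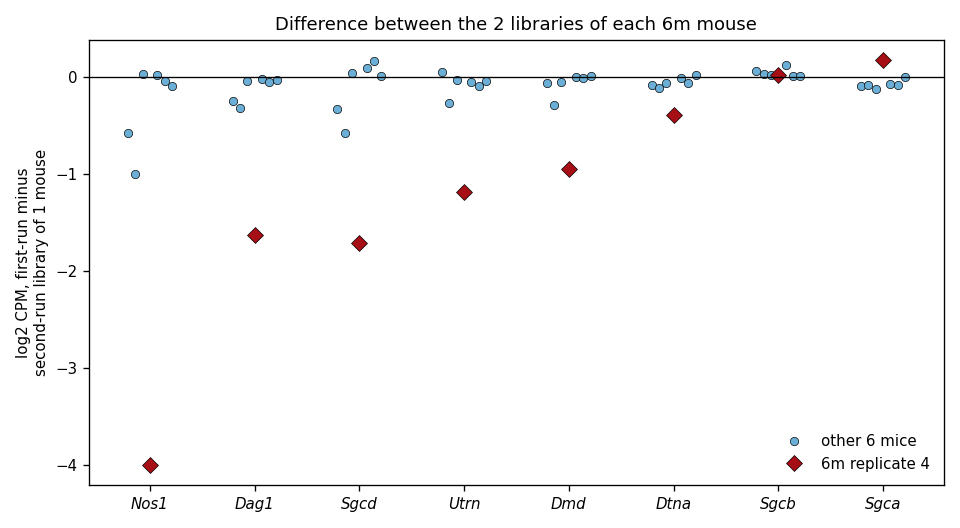
Log2 CPM of the first-run library minus that of the second-run library of the same mouse (vertical axis) for the 8 genes, 1 point for each of the 7 mice at 6m. For 6m replicate 4 (diamonds) Nos1 lies at -4.00 and Dag1 at -1.63, while Sgcb (0.02) and Sgca (0.17) lie near 0.

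Over the second run, the log2 fold change at 28m fell with exonic length (rho = -0.54, across 12899 genes, which are not independent). All 4 genes that fell have more exonic bases than the median gene, with 17108 in Utrn, 11151 in Nos1, 8257 in Sgcd and 6357 in Dag1. Dmd has 23801 and Dtna 16930. After the correction of each library for length and GC content, Nos1 (-2.15, SE 0.50, adjusted p = 0.00374), Dag1 (-1.03, SE 0.33, adjusted p = 0.0227), Sgcd (-1.01, SE 0.21, adjusted p = 0.00208) and Utrn (-0.32, SE 0.07, adjusted p = 0.00221) remained lower by edgeR. Levels at a given length trend can be set side by side across the runs. The 28m replicates 4, 6 and 8, with trends of -0.20, -0.30 and -0.17, held 41.5, 27.9 and 58.8 CPM of Nos1. The first-run 6m replicates 1 and 2, with -0.24 and -0.23, held 70.6 and 39.7 CPM, and the 24m replicates 1, 2, 6 and 7, with trends between -0.14 and -0.31, held between 44.8 and 74.4 CPM. These 3 sets overlapped. The second-run 6m replicate 1, with a trend of -0.14 like that of 24m replicate 2, held 105 CPM, above all of them. Utrn was at 36.6, 26.2 and 36.7 CPM in the same 28m replicates, below the 45.3 and 39.2 CPM of the first-run 6m replicates and the 43.5 CPM of the second-run one and overlapping the 33.7 to 43.7 CPM of those at 24m. Dag1 in these 28m replicates, at 202, 135 and 185 CPM, overlapped the 180.3 and 179 CPM of the first-run 6m replicates and the 159 to 179.8 CPM at 24m, and Sgcd, at 18.9, 14.1 and 14.8 CPM, overlapped the 18.01 and 13.8 CPM at 6m and was above the 11.3 to 13.8 CPM at 24m. Second-run 6m replicate 1 held 213 CPM of Dag1 and 22.6 CPM of Sgcd, above all of these. At 6m replicate 4 of the first run, with a trend of -0.55, Nos1 was at 5.97 CPM, within the 1.96 to 16.3 CPM of the 5 steep libraries at 28m. Dag1 was at 69.6 CPM there, within their 26.1 to 93.7 CPM, Sgcd at 6.13 CPM, just below their 6.14 to 7.49 CPM, and Utrn at 21.98 CPM, just below their 22.8 to 24.6 CPM.

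**Figure D5:**
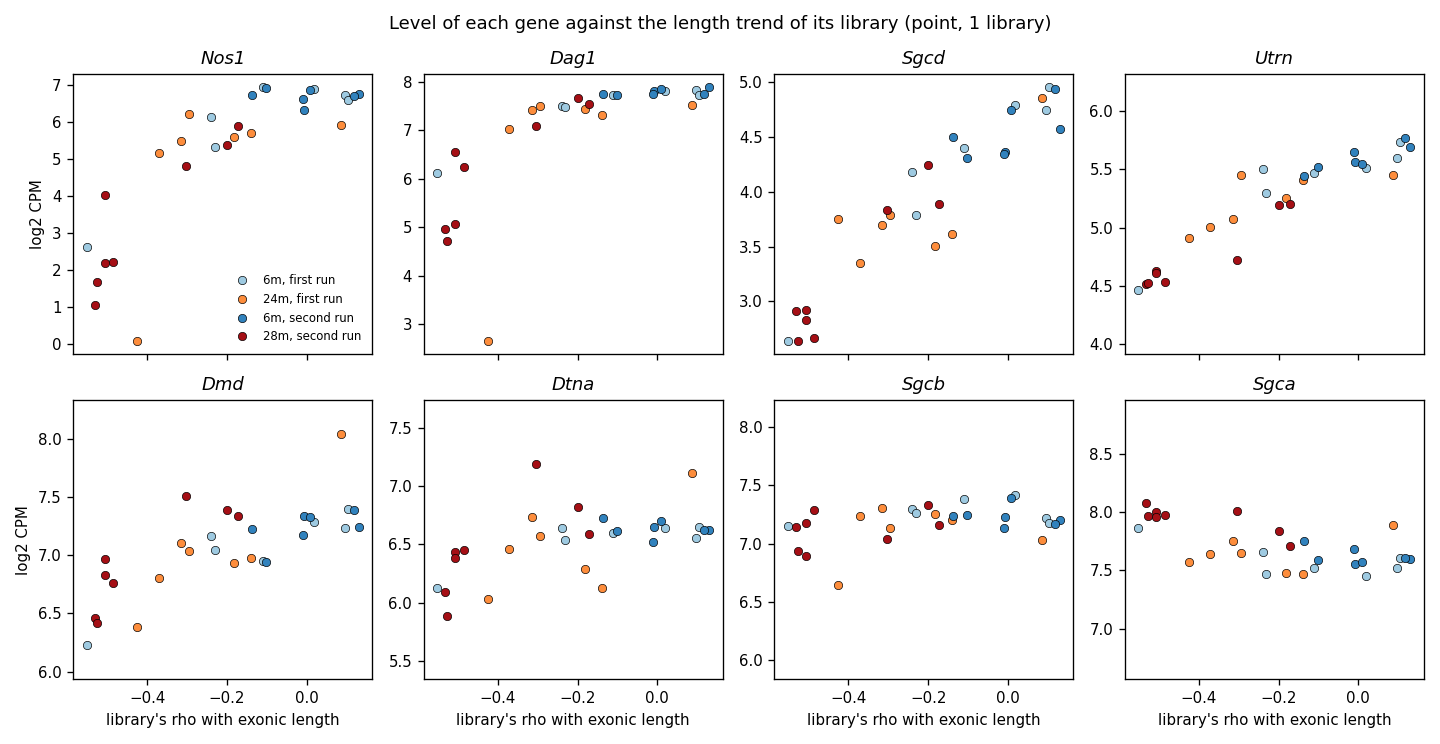
Log2 CPM (vertical axis) of the 8 genes against the length trend of each of the 29 libraries, the Spearman rho across genes of its deviation from the 6m mean of the second run with exonic length (horizontal axis). Nos1 and Dag1 are lowest in the libraries with a trend below -0.4, which include 6m replicate 4 of the first run and 24m replicate 4. Sgcd and Utrn are lowest there too except in 24m replicate 4, Sgcb has its 3 lowest values there (100.1, 118 and 122.5 CPM), and Sgca shows no fall.

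Deviations from the group means, over 29 libraries of 22 mice that share the length trend and the mice sequenced more than once, described which of the 8 genes varied together. Nos1 and Dag1 were closest (Pearson r = 0.943), followed by Dmd and Dtna (0.876), Dmd and Sgcd (0.846) and Utrn and Sgcd (0.845). Sgca ran against Utrn (-0.520). Without the replicate 4 libraries of 6m and 24m in the first run, the value for Nos1 and Dag1 was 0.920. Among the 12941 genes tested in all libraries, those with deviations most like those of Nos1 were Gpld1 (0.985), Ankrd52 (0.984), Pdpr (0.981), Usp24 (0.981) and Sik2 (0.980). At 28m these 5 were called lower too, from -1.75 for Pdpr to -1.08 for Usp24 in log2 fold change, as were 22.9% of all genes. Those most like Dmd were Cbx5 (0.964), Rasal2 (0.950), Ccdc93 (0.947), Igf2r (0.945) and Nbeal1 (0.943). Their log2 fold changes at 28m ran from -1.21 for Nbeal1 to -0.38 for Cbx5, and all 5 passed, while Dmd itself did not. The genes of both lists have more exonic bases than the median gene with its 4491, from 5028 in Pdpr to 28441 in Nbeal1.

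Of 57 other genes of the complex and of the nitric oxide pathway, 53 passed the filter on low counts in the second run. By edgeR 19 of them were lower (35.8%, against 22.9% of all genes) and 9 were higher (17%, against 24.3%), with a median log2 fold change of -0.18. Without the 5 libraries of steep trend 7 were lower and 5 higher, in a fit that called 1292 lower and 1392 higher of all 13221 genes, and with the trend as a covariate none passed. Of the 6 basement membrane ligands of dystroglycan, 5 were lower and none higher, with a median of -0.91. Hspg2, perlecan, was at 109 ± 48.5 CPM at 28m and 302 ± 31.2 CPM at 6m (SD, log2 fold change -1.49, SE 0.24, adjusted p = 0.000563). The laminin chain genes Lamc1 (-1.12), Lama2 (-1.02) and Lamb1 (-0.81) fell with it, and Agrn, agrin, did not pass (-0.39, adjusted p = 0.102). Without the 5 libraries of steep trend these 4 genes still passed, with -0.90 for Hspg2, -0.71 for Lamc1, -0.61 for Lama2 and -0.92 for Lamb1. After the correction for length and GC content Lamb1 was at -0.31 and did not pass (adjusted p = 0.305), and Lama2 was at -0.51 and did (adjusted p = 0.00212).

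Among the other sarcoglycans and sarcospan, Sspn, a small membrane protein that binds the sarcoglycans, fell by 0.74 on the log2 scale (SE 0.12, adjusted p = 0.000652 by edgeR), and 1 of the 3 tested was lower. Of the syntrophins and dystrobrevin beta, 2 of 4 were lower, Sntb2 (-0.85) and Dtnb (-0.69), both under 5 CPM. Beside these short lists, 22.9% of all genes were lower. Drp2, another relative of dystrophin, had a log2 fold change of -0.94 (adjusted p = 0.00184). None of these 3 passed without the 5 libraries of steep trend, with -0.43 for Sntb2 (adjusted p = 0.240), -0.48 for Dtnb (adjusted p = 0.140) and -0.65 for Drp2 (adjusted p = 0.0513), while Sspn did (-0.44, adjusted p = 0.00197). After the correction for length and GC content, Sntb2 (-0.48, adjusted p = 0.0437) and Drp2 (-0.60, adjusted p = 0.00997) passed by edgeR. Dtnb did not (-0.32, adjusted p = 0.140). Neither of the 2 genes of the laminin-binding integrin passed, but Itga7 was higher without the 5 libraries of steep trend (0.40, adjusted p = 0.0434, against 0.14 with them), a gene named after its values were seen.

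Among the enzymes that glycosylate dystroglycan, 3 of 17 were lower and 4 were higher, both below the 22.9% and 24.3% of all genes, with a median of -0.04. B3galnt2 (-0.61, adjusted p = 0.00242) fell, and Dpm3 (0.92, adjusted p = 0.00569) and Dpm1 (0.55, adjusted p = 0.00212), subunits of the synthase of dolichol phosphate mannose, rose by edgeR. Dpm3 did not pass without the 5 libraries of steep trend (0.14, adjusted p = 0.517) or after the correction for length and GC content (0.31, adjusted p = 0.0722), and Dpm1 and B3galnt2 without those libraries were at 0.20 and -0.32 and passed. Among 9 linker and membrane partners, 3 were lower and 2 higher. Plec, the linker plectin (-0.81), and Synm, synemin (-0.63), fell, while Des, desmin, rose from 3620 ± 103 to 5756 ± 1000 CPM (SD, log2 fold change 0.64, SE 0.10, adjusted p = 0.000538). Plec (-0.24, adjusted p = 0.0741) and Synm (-0.38, adjusted p = 0.0703) did not pass without the 5 libraries, nor did they after the correction for length and GC content (-0.22 and -0.31). Krt8, a keratin, had a log2 fold change of 3.52 (SE 1.22, adjusted p = 0.0267) on levels of 6.47 ± 12.2 CPM at 28m and 0.530 ± 0.902 CPM at 6m, and it did not pass without 28m replicate 6 (2.13, adjusted p = 0.100) or without 6m replicate 6 (3.38, adjusted p = 0.0516), by limma-voom (2.67, adjusted p = 0.129), with the first-run 6m libraries as the control (3.42, adjusted p = 0.0521) or with the length trend as a covariate (5.45, adjusted p = 0.424).

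In the nitric oxide pathway 4 of 11 genes were lower and 3 higher, against 22.9% and 24.3% of all genes, with a median of -0.28. Both other synthases were lower, with -0.60 (adjusted p = 0.00390 by edgeR) for Nos3, the endothelial form at 19.6 CPM at 6m, and -0.68 (adjusted p = 0.0103) for Nos2, the inducible form at 6.32 CPM. Nos1ap, an adaptor of neuronal synthase, was under 1 CPM in both groups (-1.07, adjusted p = 0.0404) and passed in 4 of the 15 fits that each left out 1 library (-1.48 to -0.90). Dynll1, a dynein light chain that binds the neuronal synthase, rose by 0.59 (adjusted p = 0.0222). With the 5 libraries of steep trend left out, Dynll1 was at 0.076 (adjusted p = 0.784) and Nos2 at -0.33 (adjusted p = 0.131), neither past the threshold, Nos1ap at -0.40 (adjusted p = 0.530), and Nos3 at -0.27 (adjusted p = 0.0296). With the first-run 6m libraries as the control, none of these 4 passed, with -0.43 for Nos3 (adjusted p = 0.0596), -0.57 for Nos2 (adjusted p = 0.0512), 0.53 for Dynll1 (adjusted p = 0.0636) and -0.63 for Nos1ap (adjusted p = 0.305). The same control ended the calls of Dtnb (-0.54, adjusted p = 0.0979), Dpm3 (0.67, adjusted p = 0.0510) and Plec (-0.60, adjusted p = 0.0676). With 6m replicate 4 left out of it, 4 genes passed again by edgeR. They were Nos3 (-0.50, adjusted p = 0.0230), Nos2 (-0.62, adjusted p = 0.0314), Dpm3 (0.76, adjusted p = 0.0269) and Plec (-0.70, adjusted p = 0.0287). Dynll1 (adjusted p = 0.0613), Nos1ap (adjusted p = 0.191) and Dtnb (adjusted p = 0.0849) still did not. At 24m none of the 55 genes tested from these lists passed, by edgeR or by DESeq2.

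Of 80 markers of the muscle's cell types, 18 were lower at 28m (22.5%, against 22.9% of all genes) and 22 were higher (27.5%, against 24.3%), shares near those of all genes. By list, 6 of 8 endothelial genes were lower and 1 was higher, and their summed level lay between 251 and 369 CPM against 428 to 481 CPM at 6m. Of the smooth muscle and pericyte genes 4 of 7 were lower and 1 higher (212 to 352 CPM against 346 to 409), and of the fibroblast genes 4 of 6 were lower (380.1 to 1490 CPM against 628 to 3552). Of 15 genes of the synapse and of denervation, 8 were higher and 1 lower, with a sum of 216 to 741 CPM against 164 to 219 CPM, and 4 of 7 slow fibre genes were higher. Among the muscle fibre genes, Ttn (-0.72) and Neb (-0.75), which have very long mRNAs, were lower, and Mb (0.94) was higher, with sums of 78479 to 96838 CPM at 28m and 80583 to 86675 CPM at 6m. Of the fast fibre genes 1 of 9 was lower and 4 were higher. Of the adipocyte, Schwann cell and tendon lists 1 gene each was higher, and none of the 6 immune genes passed. At 24m none of the 80 markers passed by edgeR, and none of them was without counts throughout a group. The marker calls at 28m were not repeated without the libraries of steep length trend or with a correction for it. Age and length trend cannot be told apart in them. The part of the markers in the changes of the 8 genes was not tested.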

How the data were processed

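Whole TA muscle RNA of 22 mice gave 29 libraries (NEBNext Ultra II, poly-A, Illumina NextSeq, 75-base single-end reads). The authors aligned the reads with STAR 2.5.4b to mm10 and deposited raw read counts per gene from its gene counting, whose strand column is not stated; the processing notes also name bcl2fastq 2.20, R 3.5.1 and DESeq2 1.22.2. Counts in different libraries are comparable after scaling only, and total counts of 17633475 to 33499162 per library set the precision. The pairing of the 6m libraries comes from mouse names in the table's columns; the other replicate numbers are names.

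From the deposited counts, edgeR 4.0.16 in R 4.3.3 (filterByExpr, TMM, quasi-likelihood F test, Benjamini-Hochberg adjustment over all genes tested, threshold 0.05) compared 28m with 6m in the second run, 24m with 6m in the first, both effects with each other, and both 6m runs with the mouse as a block. DEGs were genes past the threshold that changed by at least 1 on the log2 scale. Count ratios were compared by exact permutation of samples. DESeq2 1.42.0, limma 3.58.1, other scalings and filters, thinned counts, corrections for length and GC content and left-out libraries were alternatives. Lengths came from GENCODE, with 379 of 22537 genes unmatched. The steps were tested on simulated data. The members and lists were chosen with earlier results of these data known. Named from each list were at most 4 genes, those with the largest change among genes past the threshold at 28m, and the 5 genes with deviations most like those of Nos1 and of Dmd. Agrn was named in addition after its value was seen, and some genes of the lists are not reported here by name. Figures were drawn with matplotlib 3.10.9.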

Additional observations from a re-analysis of the deposited data

Results flagged for a closer look

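In 6 of the 32 sets of values (8 genes in 4 groups of 7 or 8 libraries), 1 library stood apart from its group by Dixon's criterion, which chance alone meets in about 1 of 20 sets. Dag1 was at 6.22 CPM in 24m replicate 4, with the next library at 130.4 CPM. In 6m replicate 4 of the first run Dag1 was at 69.6 CPM (next 179) and Dtna at 69.7 CPM (next 92.6). Dmd was at 263 CPM in 24m replicate 5 (next 137), and Sgcd in the same library was at 28.99 CPM (next 13.8). Sgcb was at 168 CPM in 6m replicate 3 of the second run (next 152). Dag1 and Dtna in the second-run library of 6m replicate 4, the same mouse, were at 216 and 91.5 CPM.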

How the results depend on the processing

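Of 1406 alternative values, 1299 kept their direction and their side of the threshold or, for counts, stayed within 1.5 times. The 4 lower members and 1 higher member at 28m were found with each other scaling, filter and tool tried, with thinned counts and without any 1 library (4 and 1 in all 15 fits). By limma-voom Nos1 was at -3.33 and Dag1 at -1.59 at 28m, against -2.41 and -1.19 by edgeR. With the library's length trend as a covariate, added after seeing the data, 0 were lower and 0 higher, as for the other genes of the complex (0 and 0), and Dmd turned to 0.51, Dag1 to 0.40, Sgcd to 0.031, Dtna to 0.41, Sntb2 to 0.085, Plec to 0.16, Nos1ap to 0.41, Dpm3 to -0.25, Dpm1 to -0.047 and Dynll1 to -0.35; this trend did not overlap between the groups. With the trend in length and GC content taken out, Dmd was at 0.23, Sgca at -0.0043 and Dtna at 0.37, and 10 other genes were lower against 19 (1996 of all genes against 2981). Without 28m replicates 1, 2, 3, 5 and 7, Dmd was at 0.17 and Dtna at 0.25, and of the other genes 7 were lower and 5 higher (1292 and 1392 of all genes). With the 6m libraries of the other run, 11 other genes were lower and 5 higher, 1422 and 1559 of all genes passed in place of 2981 and 3159, and at 24m Dmd was at -0.14 and Sgca at -0.0003. At 28m, leaving 6m replicate 4 out of that control gave 2324 lower and 2496 higher of all genes. Leaving out 1 library gave 17 to 24 lower and 7 to 11 higher other genes at 28m.

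At 24m, Dmd was at -0.014 by limma-voom, Sgca at -0.051 and Dtna at 0.023 with the length and GC trend taken out, and Dtna at 0.049 with the covariate. Without 1 library Dmd ranged from -0.20 to 0.12, Dtna from -0.16 to 0.032 and the log2 ratio of Nos1 to Dmd from -1.43 to -0.31. Without both replicate 4 libraries 1 other gene, Sspn, was lower (-0.35), and 45 genes in all were lower and 76 higher, against 3 and 8. DESeq2 called 45 and 170, and the dispersion of all 29 libraries 19 and 133. The difference of the effects was 0.14 for Dmd and 0.34 for Dtna with the length and GC trend taken out, 0.30 for Dmd, 0.0032 for Sgcd and 0.22 for Dtna with the covariate, and -0.0066 for Sgcb without both replicate 4 libraries. The causes were not tested.

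The mouse as a replicate block (limma-voom, correlation of 0.735 between libraries of 1 mouse) left 0 members past the threshold for the difference of the effects. Between the 6m runs, the fit without the block also had 0. Without both libraries of 6m replicate 4, 1 member was higher in the second run (Dag1, 0.12), and 83 and 103 genes in all were lower and higher, against 0.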
